A study of Mus musculus with 81 samples.

Results

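The regions described here are stretches of the mouse genome that domains of the histone variant mH2A1 covered in fear-conditioned mice and not in other, untrained mice. They are the 1-kb bins of mm10 that domains covered for at least 50% of their length in both mH2A1 lists of trained mice at 30 min, and in none of the 3 mH2A1 lists of untrained mice. In all, 11561 bins met this rule, of 2647547 bins of the genome with at least 500 known bases and of 769710 bins that at least 1 of the 5 lists covered. They made up 1.5% of those covered bins. Bins with the reverse pattern, covered in the 3 untrained lists and in neither trained list, numbered 24533, and 94566 bins were covered in all 5 lists. The names gained bins and losing bins stand for the first pattern and its reverse.

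MacroH2A histones replace H2A in the nucleosome and carry a large globular domain that projects out of it. They spread over broad domains, are abundant on the inactive X chromosome and in heterochromatin, and are mostly known as marks of repressed chromatin, although they also lie on some active genes. mH2A1 is the product of H2afy and mH2A2 that of H2afy2, and both are present in neurons of hippocampal area CA1, a region needed for contextual memory.

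Chromatin was immunoprecipitated from CA1 of male C57BL/6J mice of about 9 to 12 weeks that stayed in the home cage (untrained) or received contextual fear conditioning with foot shock (trained). The mH2A1 lists came from 3 untrained and 2 trained mice at 30 min, 2 and 2 at 1 h, and 5 and 5 at 6 h, and the mH2A2 lists from 3 and 2 at 30 min and 3 and 3 at 1 h. At 30 min both variants were profiled in the same mice against the same inputs, whereas the mice of 1 h and 6 h were others, and their mH2A1 was pulled down with another antibody than at 30 min. RNA was sequenced from 3 untrained and 2 trained intact mice at 1 h, from mice that carried an AAV with a scramble shRNA (shScr) or an shRNA against H2afy (shH2afy), 3 untrained and 3 trained at 1 h for each virus, and from untrained mice with shScr, shH2afy or shH2afy2, 3 each, taken 2 weeks after the injection. The shRNAs were expressed from a U6 promoter, which is active in all cell types, and the tissue was bulk CA1, so that fewer cells of a type and less signal per cell cannot be told apart. In intact mice 10 of 10 markers of CA1 pyramidal neurons passed the filter on low counts. So did 6 of 6 markers of dentate granule neurons and 8 of 8 of microglia and macrophages, so that passing does not set CA1 apart.

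The 30 domain lists held 51899 to 95952 domains each, of a median length of 3000 to 5600 bp, and covered 8.52 to 24.4% of all bins. In the mH2A1 lists of 30 min the trained mice had less covered genome (12.3 and 12.6% of bins) than the untrained mice (13.9, 15.7 and 15.4%). The reads inside domains numbered 16.4 and 17.9 M in those trained mice and 19.5, 21.6 and 22.3 M in the untrained mice. Whether this difference in called area bears on the choice of gained bins was not tested. The labels of the 2 untrained mH2A1 samples of 1 h name mH2A1 in the title and mH2A2 in the antibody field. Their lists were most like those of mH2A1 at 6 h (Jaccard index over bins 65.4 and 55.7%, against 27.0 and 28.6% with mH2A2 of 1 h). One untrained mH2A2 list of 1 h (replicate 1) was also more like mH2A1 of 6 h (33.3%) than like the other mH2A2 lists of 1 h (27.3%), whereas these other lists resembled mH2A2 of 1 h most (32.8 to 39.2%). Values at 1 h that rest on this list are given with and without it, a choice made after the data were seen.

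The gained bins lay in 7376 runs of adjacent bins, of which 4441 were a single bin, 1968 held 2, 738 held 3, 184 held 4, 36 held 5 and 9 held 6 bins. No run was longer than 6 kb. The sequences below, read from mm10 on the plus strand with CG dinucleotides in capitals, are the central 200 bases of 6 runs on which the description turns. They are the longest run, the longest run that also held bins gaining mH2A2, and 4 of the runs whose bins met the gain pattern again at 1 h in other mice.
6-bin run beside Havcr2, chr11:46485401-46485600: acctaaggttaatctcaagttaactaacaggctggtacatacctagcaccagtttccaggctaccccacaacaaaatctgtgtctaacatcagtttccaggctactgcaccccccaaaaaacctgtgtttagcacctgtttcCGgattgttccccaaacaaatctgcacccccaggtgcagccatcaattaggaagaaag
6-bin run also gaining mH2A2, chr11:45793401-45793600: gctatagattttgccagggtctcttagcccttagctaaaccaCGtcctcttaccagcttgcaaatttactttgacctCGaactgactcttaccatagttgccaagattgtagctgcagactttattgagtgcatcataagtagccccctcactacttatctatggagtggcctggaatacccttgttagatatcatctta
first run gained again at 1 h, chr17:62087401-62087600: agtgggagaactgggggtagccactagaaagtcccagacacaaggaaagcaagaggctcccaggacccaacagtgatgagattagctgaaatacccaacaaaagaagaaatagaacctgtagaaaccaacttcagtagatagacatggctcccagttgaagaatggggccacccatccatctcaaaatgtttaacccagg
second run gained again at 1 h, beside Anxa5, chr3:36442401-36442600: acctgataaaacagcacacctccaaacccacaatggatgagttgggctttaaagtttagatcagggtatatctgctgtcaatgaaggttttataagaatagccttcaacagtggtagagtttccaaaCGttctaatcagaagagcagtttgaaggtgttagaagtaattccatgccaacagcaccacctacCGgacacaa
run in a Fam81b intron, chr13:76297401-76297600: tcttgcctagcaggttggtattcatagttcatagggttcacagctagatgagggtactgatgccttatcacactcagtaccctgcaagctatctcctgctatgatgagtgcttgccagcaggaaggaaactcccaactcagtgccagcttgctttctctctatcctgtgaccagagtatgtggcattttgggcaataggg
run in a Scml4 intron, chr10:42937401-42937600: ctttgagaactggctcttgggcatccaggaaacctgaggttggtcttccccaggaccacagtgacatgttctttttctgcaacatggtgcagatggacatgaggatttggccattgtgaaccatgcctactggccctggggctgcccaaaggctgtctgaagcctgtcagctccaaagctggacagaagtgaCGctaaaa
These 6 windows had a GC content of 41.5 to 52.5% and 0, 1 or 2 CG dinucleotides each. The first lies within chr11:46482001-46488000, an intergenic run downstream of Havcr2, which encodes an immune checkpoint receptor. The second lies within chr11:45790001-45796000, where 2 of 6 bins were also gained in mH2A2 at 30 min. The next ones lie within chr17:62086001-62089000, with no annotated gene within 10 kb, and chr3:36441001-36444000, downstream of Anxa5, which encodes annexin A5, a phospholipid-binding protein. The last ones lie in introns of Fam81b (chr13:76296001-76299000) and Scml4 (chr10:42936001-42939000), the latter a gene of the Polycomb-related Scm family.

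The trained and untrained values at 30 min fixed the choice of bins and are given as a description. Domains filled the whole bin in 8485 gained bins (73.4%) of trained mouse 1 and 8874 (76.8%) of trained mouse 2. In untrained mice 88.9, 86.5 and 89.3% of the gained bins had no domain at all, and 8561 bins had none in any of the 3. Near the threshold, 2424 gained bins reached only 60% in their lower trained list and 1741 reached 40% in their highest untrained list. Just outside it, 4276 bins were left out because their lower trained list covered 40%, and 3375 because their highest untrained list covered 60%. With 1 list fewer the rule is easier to meet, and it took in 18343, 19155 and 21330 bins without untrained replicate 1, 2 or 3, and 57299 and 65176 bins without trained replicate 1 or 2.

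Most gained bins lay close to a domain of the untrained mice, but this distance was not measured for other bins. The nearest untrained mH2A1 domain was within 1 kb of 6170 gained bins (53.4%) and within 5 kb of 9256 (80.1%), with a median distance of 1000 bp, and only 465 bins (4.02%) lay farther than 20 kb. The gained bins belonged to short domains. The domains over them had a median length of 3600 bp in trained mouse 1 and 4200 bp in trained mouse 2, against 4600 and 6400 bp for all bins that the same list covered. Their median enrichment, log2 of ChIP over input as deposited for each domain, was 0.48 and 0.43, against 0.44 and 0.37 for all covered bins.

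The gained bins were set apart from other mH2A1 bins in base composition and position, which the rule did not use. Their GC content was 43.9%, above that of all bins (41.7%) and below that of bins covered in at least 1 list (46.2%), of losing bins (49.1%) and of bins covered in all 5 lists (49.4%). Interspersed and simple repeats, taken as the soft-masked share, made up 35.9% of their sequence, close to the 36.4% of all bins and above the 24.4% of losing bins. They held 8.44 CG dinucleotides per kb, against 8.26 in all bins and 13.7 in losing bins. In these 3 measures the gained bins were nearer to all bins of the genome than the losing bins were.

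Of the gained bins 7489 were intergenic (64.8%), 3187 intronic (27.6%), 258 exonic (2.23%) and 627 within 1 kb of a transcription start (5.42%). Among all bins the intergenic share was 52.4%, among bins covered in at least 1 list 53.9% and among losing bins 43.8%. Losing bins lay at promoters in 12.1% and in exons in 6.82%. Bodies of protein-coding genes held 23.9% of the gained bins, 39.2% of all bins and 46.3% of losing bins. These shares are descriptions of sets of bins, since neighbouring bins share domains.

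By chromosome the gained bins were most frequent on chromosome 7 (1034 bins, 7.29 per 1000 bins), followed by chromosome 13 (6.51), and least frequent among autosomes on chromosome 2 (3.46). Chromosome 7 also had the most bins covered in any of the 5 lists (424.1 per 1000), and of these 1.72% were gained, against 1.93% on chromosome 13 and 1.12% on chromosome 2. This share of covered bins was highest on chromosomes 18 (2.15%) and 3 (2.04%) and lowest among autosomes on chromosome 11 (1.03%). On the X chromosome, which is single and not inactivated in males, only 10 bins were gained (0.0612 per 1000). Coverage by the 5 lists was also low there, at 3.90 covered bins per 1000, and 1.57% of these were gained. No gained bin lay on the Y chromosome.

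**Figure D1:**
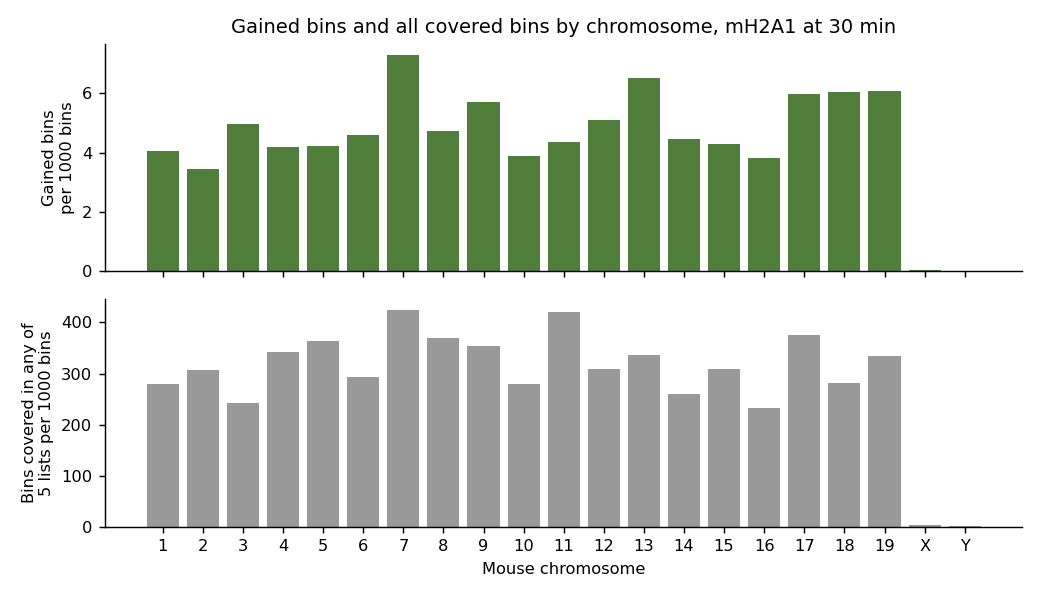
Gained bins per 1000 bins of each mouse chromosome (upper bars) and bins covered by mH2A1 domains in any of the 5 lists of 30 min per 1000 bins (lower bars). Chromosomes 7 and 13 have the tallest upper bars (7.29 and 6.51), and X and Y are near 0 in both panels.

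The first follow-up is mH2A2 at 30 min, which asks whether the second variant appeared in the same bins of the same mice. mH2A2 domains covered 27.4 and 28.8% of the gained bins in the 2 trained mice and 28.1, 26.0 and 21.3% in the 3 untrained mice. The group means were 28.1% ± 0.966 (SD, n = 2) and 25.1% ± 3.50 (SD, n = 3), and the groups overlapped. Over all bins, however, the trained lists covered less (12.2 and 8.52%) than the untrained lists (12.3, 15.4 and 13.8%). The losing bins were covered for 42.8 and 17.7% in trained mice and 46.9, 64.2 and 58.5% in untrained mice, with no overlap between groups. The trained mean was thus below the untrained mean over all bins and over losing bins, and not over gained bins.

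Of the 7522 gained bins that mH2A2 domains covered in any list of 30 min, 300 (3.99%) were covered in both trained and in no untrained mouse, against a background of 1.33% of all covered bins. The reverse pattern was seen at 89 gained bins (1.18%), against a background of 3.33%. Among losing bins the same shares were 0.491% (107 bins) and 7.86% (1712 bins). The 300 bins lay in 211 runs of up to 5 bins, with a GC content of 44.1%. Leaving out a list makes the pattern easier to meet, and the count was 533, 453 and 389 without untrained replicate 1, 2 or 3, and 1027 and 938 without trained replicate 1 or 2. In each of these 5 settings the share of gained bins stayed above that of all bins, by 1.58 to 3.11 times. Both variants were measured in the same mice against shared inputs, and the part of the inputs in this result was not tested.

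Where mH2A2 domains lay on gained bins, they were stronger than elsewhere in all 5 lists of 30 min. The median log2 enrichment of the domains over gained bins was 0.42 and 0.54 in trained mice and 0.39, 0.38 and 0.34 in untrained mice. Over all bins covered in the same lists it was 0.29 and 0.42 in trained mice and 0.29, 0.32 and 0.29 in untrained mice. In all 20 lists of 1 h and 6 h the opposite held, and domains over gained bins were weaker than those over all covered bins, as in the 19 lists other than untrained mH2A2 replicate 1 of 1 h.

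**Figure D2:**
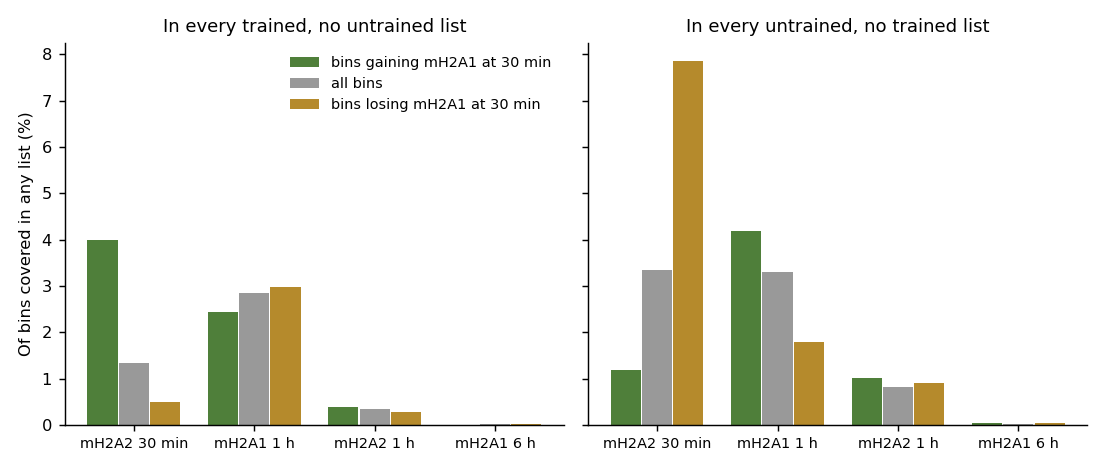
Share of bins covered in any list of a data set that were covered in every trained and no untrained list (left) or in every untrained and no trained list (right), for gained bins (green), all bins (grey) and losing bins (ochre). The green bar is above the grey one on the left (3.99 against 1.33%) and below it on the right (1.18 against 3.33%) in mH2A2 of 30 min.

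At 1 h mH2A1 domains covered about as many gained bins in untrained as in trained mice. They covered 50.01 and 54.8% of the gained bins in the 2 trained mice and 58.2 and 54.5% in the 2 untrained mice. The means were 52.4% ± 3.40 and 56.4% ± 2.57 (SD, n = 2 each), and the groups overlapped. Over all bins the same lists covered 21.5 and 23.4% in trained and 24.4 and 21.4% in untrained mice. Relative to all bins, the gained bins were covered 2.33 and 2.34 times as often in trained mice and 2.38 and 2.55 times as often in untrained mice.

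The gain pattern was met again at 1 h by 219 of 8963 covered gained bins (2.44%), against a background of 2.86%, and the reverse pattern by 376 (4.195%), against a background of 3.3%. The share of bins that repeated the gain was therefore near the background and below it. Without untrained replicate 1 or 2 the pattern was met by 1143 and 496 bins, and without trained replicate 1 or 2 by 511 and 401 bins, since fewer lists were asked for. The share of gained bins was above that of all bins in 1 of these 4 settings.

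At 6 h, the set with most mice, the gained bins were covered to a similar extent in both groups. The values were 56.5, 54.3, 54.8, 57.5 and 54.4% in trained mice and 55.8, 56.4, 54.9, 56.6 and 55.9% in untrained mice. The means were 55.5% ± 1.44 and 55.9% ± 0.679 (SD, n = 5 each), a difference of -0.446 percentage points that is smaller than the spread within either group. All bins were covered for 22.6 to 24.0% in these lists, so that gained bins were covered 2.37 to 2.48 times as often as the genome at large in every mouse, trained or not.

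No gained bin among 9460 covered at 6 h met the gain pattern again, against a background of 0.0258%, and 4 bins (0.0423%) met its reverse, against a background of 0.0232%. Leaving out any 1 list gave 0 to 6 gained bins, the highest without untrained replicate 5. In Fisher's exact test per bin (two-sided, 5 against 5 mice), no bin of the genome and no gained bin among 6762 tested passed an adjusted p of 0.05, a background of 0%. The smallest exact p that the design allows is 0.00794, and the smallest adjusted p was 1. Only bins covered in every mouse of a group and in none of the other reach that exact p. Over the genome 250 bins did so in trained and 225 in untrained mice. After adjustment over 664813 bins these are too few for any to pass, so the test cannot decide on single gained bins. At an unadjusted p under 0.05 there were 66 gained bins (0.976%), 29 higher and 37 lower in trained mice, against a background of 0.903% of 664813 bins.

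At 1 h mH2A2 domains covered 18.3, 19.1 and 27.9% of the gained bins in trained mice and 41.8, 21.9 and 22.2% in untrained mice. The means were 21.8% ± 5.33 and 28.6% ± 11.4 (SD, n = 3 each), and the groups overlapped. The highest value belongs to untrained replicate 1, the list that resembled mH2A1. Without it the difference between trained and untrained mice was -0.285 instead of -6.87 percentage points. Over all bins the lists covered 14.1, 11.7 and 16.5% in trained and 16.8, 16.3 and 15.5% in untrained mice.

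The gain pattern was met in mH2A2 at 1 h by 30 of 7845 covered gained bins (0.382%), against a background of 0.337%, and its reverse by 80 bins (1.02%), against a background of 0.808%. Without untrained replicate 1, 2 or 3 the gain count was 80, 55 and 58, and without trained replicate 1, 2 or 3 it was 111, 118 and 75. The share of gained bins was above that of all bins in 4 of these 6 settings, by at most 1.39 times. Without untrained replicate 1 the reverse pattern was met by 181 of 6361 covered gained bins (2.85%), against 2.91% of all covered bins.

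**Figure D3:**
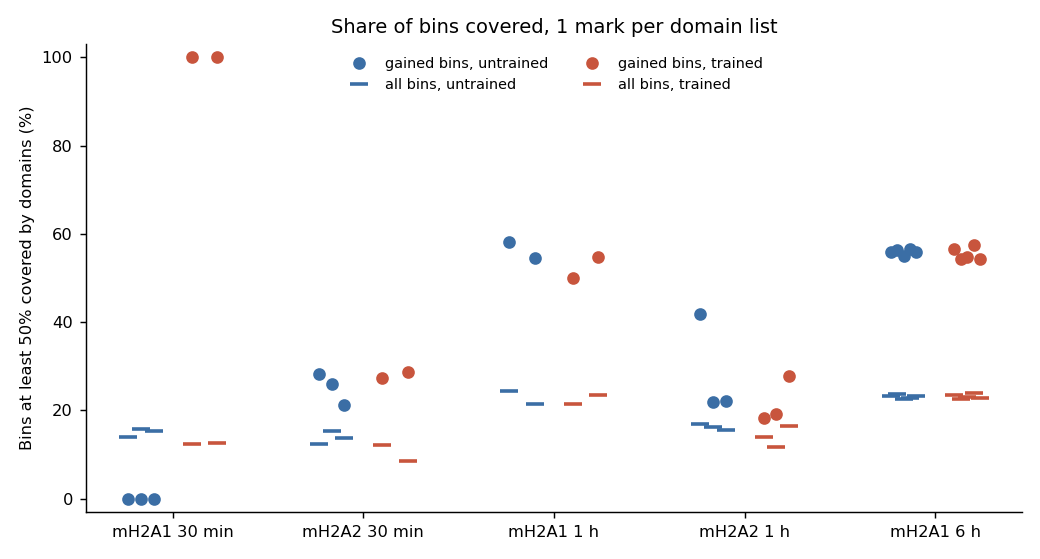
Share of bins that domains covered for at least 50%, with 1 point per list for gained bins and 1 dash per list for all bins, untrained in blue and trained in red. The mH2A1 points of 30 min are at 0 and 100% by the rule, whereas at 6 h the trained points (54.3 to 57.5%) lie among the untrained ones (54.9 to 56.6%).

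Across the later lists the gained bins were often covered by mH2A1 domains, in untrained as well as trained mice. Of all gained bins, 9853 (85.2%) were covered in at least 1 of the 14 mH2A1 lists of 1 h and 6 h and 1988 (17.2%) in every one, against 39.4% and 8.96% of all bins. Both shares were higher for losing bins (87.8 and 36.6%) and for bins covered in all 5 lists (96.7 and 69.5%). In 10988 gained bins (95.0%) a domain was present in at least 1 of the 13 untrained lists other than those of mH2A1 at 30 min. This share was 47.8% of all bins and 99.6% of losing bins. Only 278 gained bins (2.40%) were covered in none of the 25 lists that the rule did not use. Without untrained mH2A2 replicate 1 of 1 h these counts were 10830 bins (93.7%) in at least 1 of 12 untrained lists, against 46.2% of all bins, and 330 bins (2.85%) in none of 24 lists. The bins that met the gain pattern again in mH2A1 at 1 h, mH2A1 at 6 h or mH2A2 at 1 h numbered 249 (2.15%) in 217 runs, and 0 bins did so in more than 1 of these sets. Without the same replicate 298 bins (2.58%) did so, 1 of them in more than 1 set.

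Coverage of the gained bins at 6 h varied with their composition and position. In untrained mice it was 40.9% for the 2979 bins at or below the lower quartile of GC content (41.7%) and 62.4% for the 2815 bins above the upper quartile (46%). The corresponding trained values were 39.5 and 62.0%. Intergenic gained bins were covered for 57.7% in untrained and 57.1% in trained mice, intronic ones for 54.1 and 54.0%, promoter ones for 50.7 and 49.7% and exonic ones for 41.6 and 41.2%. The 3000 bins that overlapped an untrained domain of 30 min for less than 50% of their length had higher coverage (66.5 and 64.7%) than the 8561 without overlap (52.2% in both groups). In each of these subsets the trained and untrained means of 6 h were within 2 percentage points of each other.

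The gained runs stood as local maxima in the lists they were not chosen from. At the centre of a run 57.9% ± 0.731 of the runs were covered in untrained and 57.2% ± 1.45 in trained mice at 6 h (SD, n = 5 each), against 45.0% ± 0.572 and 45.2% ± 1.18 at 10 kb upstream. For mH2A2 at 30 min the centre was covered in 28.9% ± 0.892 of the runs in trained mice (SD, n = 2) and 26.4% ± 3.69 in untrained mice (SD, n = 3). At 10 kb upstream these values were 19.4% ± 0.920 and 21.8% ± 1.77. The trained lists were thus lower than the mean of the untrained lists in the flanks and not at the centre. For mH2A1 at 30 min, 10 kb upstream, trained (25.4% ± 0.345) and untrained lists (27.3% ± 1.68) were close to each other.

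**Figure D4:**
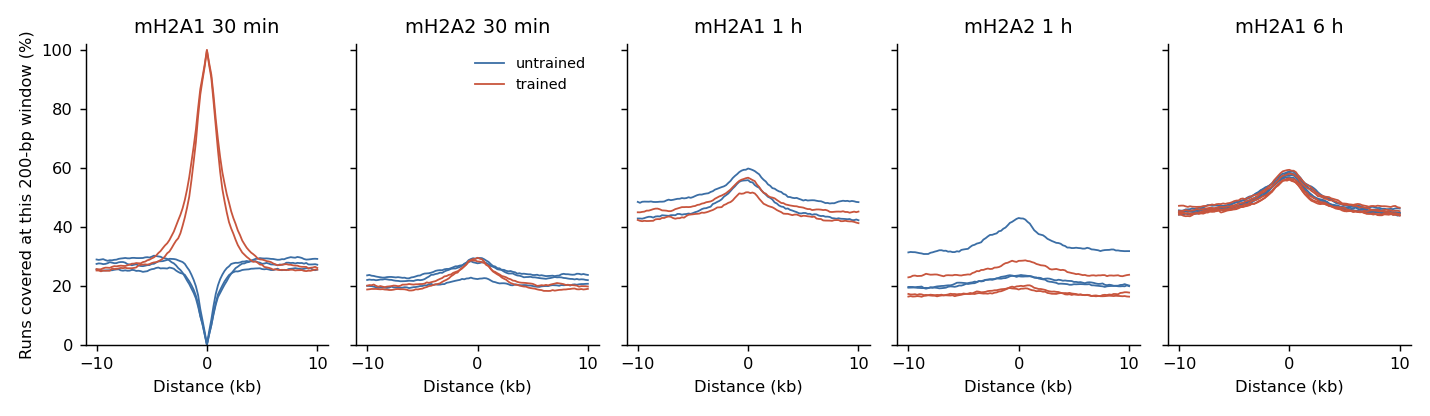
Share of the 7376 gained runs covered at each 200-bp window up to 10 kb from the run's centre, with 1 line per list, untrained in blue and trained in red. The mH2A1 lines of 30 min reach 0 and 100% at the centre by the rule, and the lines of 6 h rise to 56.0 to 59.3% in trained and 56.9 to 58.8% in untrained mice.

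The longest runs had their own histories. The run at chr11:46482001-46488000 beside Havcr2 was covered at 6 h in 5 of 5 untrained and 5 of 5 trained mice, at 1 h in 2 of 2 untrained and 1 of 2 trained mice, and at 30 min by mH2A2 in 1 untrained and no trained mouse. The run at chr11:45790001-45796000 was covered by mH2A2 at 30 min in 1 of 3 untrained and 2 of 2 trained mice and by mH2A1 at 6 h in all 10 mice. The runs at chr9:101590001-101596000 and chr14:72292001-72298000 were also covered at 6 h in all 10 mice. By contrast, the run at chr3:48341001-48347000, of which repeats made up 73.7%, was covered at 6 h in 2 of 5 untrained and 2 of 5 trained mice. All 9 runs of 6 bins were intergenic, and the tenth longest, chr3:52191001-52196000, lay in an intron of the predicted gene Gm37202.

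The runs with most bins that met the gain pattern again did so at 1 h. The runs at chr17:62086001-62089000 and chr3:36441001-36444000 repeated it over all 3 of their bins. At 6 h the first of these was covered in 0 of 5 untrained and 1 of 5 trained mice and the second in 1 of 5 and 1 of 5. The intronic run of Fam81b was covered at 6 h in 2 of 5 untrained and 5 of 5 trained mice, and that of Scml4 in 5 of 5 and 5 of 5. A run upstream of Trpc6, which encodes a calcium-permeable cation channel, repeated the gain over 2 of 4 bins (chr9:8534001-8538000) and was covered at 6 h in 1 of 5 untrained and 3 of 5 trained mice. These runs were chosen for this pattern at 1 h, and their 1-h values are a description.

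Genes within 10 kb of a gained bin numbered 5177 of 55413 annotated genes (9.34%), 2384 of them protein-coding (10.9% of 21938). The protein-coding ones were long, with a median length of 31.5 kb against 16.4 kb for the others. Of the 30 immediate early genes matched to the annotation 26.7% lay within 10 kb of a losing bin, near the 24.6% of all protein-coding genes. They were short, with a median length of 6.34 kb against 17.4 kb for all protein-coding genes. None of them lay within 10 kb of a gained bin, against 10.9% of protein-coding genes. The nearest were Egr2 at 13.5 kb and Fos at 22.9 kb, both transcription factors induced by neuronal activity, and the median distance was 214.2 kb. Arc, a synaptic regulator of memory, lay 260.4 kb from the nearest gained bin. Neither macroH2A gene and 0 of 15 GABA-A receptor genes had a gained bin within 10 kb.

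Receptors of the olfactory and vomeronasal systems, large clustered families that are silent in most brain cells, were near gained bins in 179 of 1407 (12.7%) and 69 of 331 genes (20.8%). For losing bins these shares were 7.53 and 6.65%, and for bins covered in all 5 lists 18.8 and 31.4%. Genes of one cluster share bins, and 212 and 114 gained bins lay near these families. Of the glutamate receptors 3 of 26 (11.5%) were near a gained bin (Grik3, a kainate receptor, Gria1, an AMPA receptor, and Grm7, a metabotropic receptor). Of the voltage-gated potassium channels 7 of 43 (16.3%) were, among them Kcnh8 with 6 gained bins in its body and Kcns3 with 1 bin nearby. Of the adhesion genes of the cadherin, protocadherin and contactin-associated families 17 of 120 (14.2%) were. Among these Cdh13, which encodes T-cadherin and is 1041 kb long, had most, with 13 gained bins in its body. The share of all protein-coding genes was 10.9%. Losing bins lay near 30.8, 46.5 and 30.8% of the same families, against 24.6% of protein-coding genes. The median lengths of the families were 298.3, 32.0 and 102.4 kb, against 17.4 kb for protein-coding genes, and the part of length was not tested.

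The RNA of genes near gained bins was then compared between untrained and trained intact mice, 1 h after training, with counts of 48.8 to 58.7 M per mouse. Of 1351 tested genes within 10 kb, 0 passed an adjusted p of 0.01 in edgeR's quasi-likelihood test with Benjamini-Hochberg adjustment, against a background of 0.0959% (15 of 15641 genes, all higher). At an unadjusted p under 0.05 there were 255 genes (18.9%), against a background of 19.9%, and DESeq2 called 27 genes (2.00%; 17 higher, 10 lower), against a background of 3.04%. The median log2 fold change of these genes was -0.01, as over all genes tested. Within 50 kb of a gained bin, 2 genes were called (0.0588% of those tested, below the background of 0.0959%). These were Egr2 with a log2 fold change of 3.40 ± 0.16 (SE) and Fos with 2.09 ± 0.18 (SE). The count near gained bins rose from 0 to 45 when untrained replicate 2 was left out (13 higher, 32 lower; 3.37% of those tested, against 2.68% of all genes) and was 0 without any other library.

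Members of the gene families near gained bins did not pass the test in intact mice. The values of single mice are given in counts per M counts after TMM scaling (CPM). For Cdh13 they were 77.6, 67.4 and 75.04 CPM in untrained and 73.1 and 74.1 CPM in trained mice, and the groups overlapped. For Gria1 they were 879.7, 1356.8 and 1073.6 CPM in untrained and 1329.5 and 1249.9 CPM in trained mice, and these groups overlapped as well. Kcnh8, which encodes a potassium channel of the ether-a-go-go family, had 2.17, 1.90 and 2.51 CPM in untrained and 1.70 and 1.83 CPM in trained mice. Its groups did not overlap, but its log2 fold change of -0.31 ± 0.17 (SE) had an adjusted p of 0.344 in edgeR. Scml4, whose intron holds a run that repeated the gain at 1 h, had 3.66, 4.63 and 3.62 CPM in untrained and 5.35 and 5.28 CPM in trained mice. Its groups did not overlap either, and its log2 fold change of 0.42 ± 0.14 (SE) had an adjusted p of 0.163 in edgeR. Havcr2 had 2.24, 2.59 and 2.67 CPM in untrained and 2.41 and 2.63 CPM in trained mice, which overlapped. Over the lists, 0 of 3 glutamate receptors, 0 of 6 tested potassium channels and 0 of 17 adhesion genes were called, against a background of 0.0959%. At that share, so few genes cannot show a difference from all genes.

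In mice with virus the RNA response to training near gained bins was likewise below the threshold of an adjusted p of 0.05 and a 1.2-fold change. Counts of these libraries included introns and summed to 81.4 to 92.2 M. Without TMM scaling, H2afy was at 73.1 to 78.5 CPM in the 6 libraries labelled shScr. It was at 94.2 to 107.6 CPM in the 6 labelled shH2afy, higher although the label names a knockdown. The reason was not tested. The paper reported less H2afy mRNA and mH2A1 protein with shRNA against H2afy. Marker sums were TMM-scaled within each virus. For microglia and macrophages they were 165.7 to 281.1 CPM in untrained shScr and 1241 to 1958 CPM in untrained shH2afy mice. Astrocyte sums were 652.2 to 788.9 and 1873 to 2077 CPM, CA1 pyramidal sums 735.5 to 1102 and 288.7 to 519.7 CPM. Oligodendrocyte sums overlapped. In mice labelled shScr 0 of 1473 tested genes near gained bins were called by edgeR, against a background of 0%, with 145 (9.84%) at an unadjusted p under 0.05, against a background of 8.96%, and 27 (1.83%) called by DESeq2, against a background of 1.32%. In mice labelled shH2afy 0 of 1548 were called by edgeR, against a background of 0%, with 89 (5.75%) at an unadjusted p under 0.05, against a background of 3.86%, and 5 (0.323%) called by DESeq2, against a background of 0.296%. The median log2 fold changes were -0.02 and -0.01. Of the genes beside the runs shown above, Anxa5 had 17.0, 17.0 and 16.0 CPM in untrained and 14.8, 17.7 and 17.3 CPM in trained shScr mice, and the groups overlapped.

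The baseline of the same genes was measured 2 weeks after depletion, in libraries of 9.95 to 18.8 M counts. H2afy was at 52.8 to 59.7 CPM in shScr and 40.4 to 46.8 CPM in shH2afy mice, a log2 fold change of -0.37 ± 0.10 (SE) with an adjusted p of 0.031 in edgeR. Of 1432 tested genes within 10 kb of a gained bin, 293 (20.5%) were called at an adjusted p of 0.01 and a 2-fold change, against a background of 11.7%, and DESeq2 called 358 (25.0%), against a background of 14.2%. Of the 293 genes 278 were higher, against a background of 10.5%, and 15 lower, against a background of 1.2%. Genes near losing bins were called in 17.8% and genes near bins covered in all 5 lists in 23.2%, so that the share near gained bins lay between those of these other mH2A1 bins. The median log2 fold change was 0.25 near gained bins, 0.09 near losing bins, 0.24 near bins covered in all 5 lists and 0.01 over all genes tested. In the single shH2afy libraries the median difference from the shScr mean near gained bins was 0.28, 0.25 and 0.23 on the log2 scale of CPM plus 0.5, and all genes were at 0.02 in each. The count was 152 without shH2afy replicate 1 (10.2%, against 5.65% of all genes), 178 without shScr replicate 2 (11.8 against 6.54%) and 192 without shScr replicate 3 (12.7 against 6.42%).

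Markers of other cell types moved in the same comparison. All 8 microglia and macrophage markers were higher in shH2afy mice, and their summed level was 160.5 to 259.0 CPM in shScr and 1398 to 5570 CPM in shH2afy mice. Of the astrocyte markers 2 of 4 were higher (947.8 to 1380.4 against 4660 to 5273 CPM), 4 of 7 inhibitory neuron markers were lower (1002 to 1108 against 518.9 to 643.7 CPM), and 2 of 9 tested CA1 pyramidal markers were lower (1216 to 2671 against 582.5 to 873.1 CPM). Of the dentate granule, oligodendrocyte and endothelial markers 0 of 6, 0 of 4 and 0 of 3 were called, as was 0 of 1 tested marker of B and plasma cells. The part of this shift in cell type markers in the genes near gained bins was not tested.

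The 5 higher genes with the smallest adjusted p near gained bins were Ddx60, Trim30a, Samd9l, Oas1a and Slfn5. Ddx60, an antiviral helicase, was at 0.883, 0.680 and 0.746 CPM in shScr and 23.3, 20.7 and 21.1 CPM in shH2afy mice, a log2 fold change of 4.80 ± 0.18 (SE) with an adjusted p of 4.01e-05 in edgeR. Samd9l, a cytoplasmic antiviral factor, was at 1.83, 1.67 and 2.56 against 55.8, 47.4 and 38.7 CPM, and Slfn5, a member of the Schlafen family with 3 gained bins in its body, at 3.87, 4.76 and 5.97 against 81.3, 73.5 and 55.5 CPM. In these genes every shH2afy mouse was above every shScr mouse. Trim30a and Oas1a rose too, with log2 fold changes of 5.37 and 6.09, but both have near-identical paralogs whose reads can be shared. Of the genes beside the runs shown, Havcr2, beside the longest run, was at 5.77, 3.09 and 2.77 CPM in shScr and 28.9, 36.0 and 21.8 CPM in shH2afy mice, a log2 fold change of 2.88 ± 0.32 (SE) with an adjusted p of 0.000762. Anxa5 was at 44.0, 56.9 and 43.6 against 112.7, 136.9 and 71.7 CPM, a log2 fold change of 1.15 ± 0.24 (SE) with an adjusted p of 0.00943. Scml4 and Trpc6 were not called, with log2 fold changes of -0.32 ± 0.36 and 0.13 ± 0.42 (SE) and adjusted p of 0.525 and 0.843 in edgeR.

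The lower genes with the smallest adjusted p were Lhx6, Nat14, Gpr83, Etl4 and Mtcl1. Lhx6, a transcription factor of inhibitory neurons and a member of the inhibitory marker list, was at 21.1, 21.1 and 22.4 CPM in shScr and 8.46, 7.47 and 10.7 CPM in shH2afy mice, a log2 fold change of -1.28 ± 0.16 (SE) with an adjusted p of 0.00129. Gpr83, a G protein-coupled receptor, had a log2 fold change of -1.93 ± 0.26 (SE). Nat14, Etl4 and Mtcl1 had log2 fold changes of -1.03, -1.16 and -1.11. Kcns3, which encodes a silent modifier subunit of Kv channels, was the 1 gene of the named families to be called, at 16.0, 13.2 and 11.1 against 5.80, 7.05 and 5.99 CPM (log2 fold change -1.10 ± 0.19, SE, adjusted p 0.00434). No other member of these families near a gained bin was called, and the medians of the families were -0.57 for 3 glutamate receptors, -0.79 for 6 potassium channels and -0.64 for 14 adhesion genes, on the log2 scale. No olfactory or vomeronasal receptor near a gained bin passed the filter on low counts. For Cdh13 the log2 fold change was -0.83 ± 0.27 (SE), with an adjusted p of 0.0474, which missed the threshold.

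With shH2afy2, 0 of 1306 tested genes near gained bins were called by edgeR, against a background of 0%, with 243 (18.6%) at an unadjusted p under 0.05, against a background of 20.7%, and 7 (0.536%) called by DESeq2, against a background of 0.782%. H2afy2 was at 17.3 to 18.3 CPM in shScr and 7.26 to 12.7 CPM in shH2afy2 mice, a log2 fold change of -0.95 ± 0.22 (SE) with an adjusted p of 0.0907 in edgeR. The median log2 fold change near gained bins was -0.04. With DESeq2 at the same threshold, the paper lists Ddx60, Trim30a and Oas1a among the genes higher in both depletions. Samd9l and Slfn5 are not on that list. Havcr2 was at 5.57, 2.98 and 2.68 CPM in shScr and 5.12, 10.2 and 3.95 CPM in shH2afy2 mice, and Anxa5 at 42.5, 54.9 and 42.1 against 46.0, 71.2 and 60.1 CPM, and in both genes the groups overlapped. Both depletions are compared with the same 3 shScr libraries, and the difference between them was not tested.

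**Figure D5:**
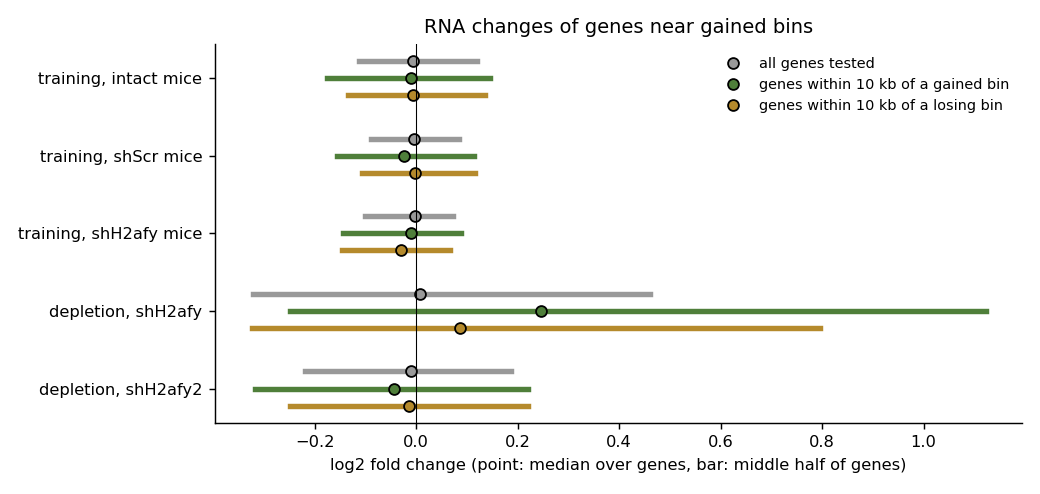
Median (point) and interquartile range (bar) of the log2 fold changes of all tested genes (grey), genes within 10 kb of a gained bin (green) and genes within 10 kb of a losing bin (ochre), in 5 RNA comparisons. The medians near gained bins are between -0.04 and -0.01 in 4 comparisons and at 0.25 in the depletion with shH2afy.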

How the data were processed

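Bins and gene lists were chosen with earlier results of these data known. The authors aligned ChIP-seq reads to mm10 with Bowtie2 and called broad domains in each library against its input, with epic2 according to the methods of the study and SICER according to the labels. The lists as deposited hold domains at a caller FDR under 0.05, with a p-value and FDR per domain as deposited by the authors, counts of ChIP and input reads inside each domain as deposited, and a deposited log2 value of ChIP over input. The deposited score, a multiple of the log2 value, was not used. For RNA the authors used STAR on mm10 and featureCounts, and the deposited values are raw counts of reads on each gene. The authors used DESeq2 (1.22.2) and DiffBind (2.10.0).

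Here domains were laid on windows of 200 bp, and a 1000-bp bin was covered at 50% or more. Bins adjacent to each other formed a run. A pattern of gain asks for every trained and no untrained list of a data set, among bins covered in at least 1 of its lists. Bases and genes came from GRCm38.p6 with the GENCODE M21 annotation, to which 23614 of 24500 (intact mice), 20403 of 20801 (virus with training) and 55413 of 55536 (depletion) genes of the tables were matched. RNA was tested with the quasi-likelihood test of edgeR 4.0.16 in R 4.3.3 after filterByExpr and TMM scaling, with Benjamini-Hochberg adjustment over all genes tested and only the compared groups in each fit, at the thresholds of the study. DESeq2 1.42.0 was an alternative. Python 3.11.15 served for the domains (SciPy 1.17.1, pandas 2.3.3, NumPy 2.4.6). The steps were tested on simulated data. CPM values are counts per M counts after TMM scaling, except those of H2afy in the virus libraries with training, which had no TMM scaling. Deposited replicates are separate mice.

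Regions named are the 10 longest runs and up to 10 runs with the most bins gained again at 1 h or 6 h. Genes named lie within 10 kb of those runs, are up to 5 higher and 5 lower called genes near gained bins with the smallest adjusted p, or belong to the gene families listed. Ties between runs of equal length were ordered by the windows covered. Other genes and runs in the text were singled out after their values were seen. In the training comparison of shScr mice, samples with the same replicate number deviated together from their group means (correlations over genes of 0.17, 0.17 and 0.23), and the fit with the replicate number as a block called 0 genes near gained bins, as without it. Other settings covered the cover threshold, the FDR of the domains, runs in place of bins, gene distance, filtering, scaling and each replicate left out.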

Additional observations from a re-analysis of the deposited data

Results flagged for a closer look

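The untrained mouse of replicate 3 at 6 h stood apart in the coverage of those gained bins that had no overlap with an untrained domain of 30 min. In this mouse mH2A1 domains covered 50.8% of these bins, against 52.3, 52.6, 52.7 and 52.8% in the other 4 untrained mice, so that its gap to the nearest of them was large for the range of the group (Dixon's test at the 95% level). The trained mice of 6 h ranged from 51.0 to 53.9%. This was 1 of 16 tests, all in the trained and untrained groups of mH2A1 at 6 h and over quantities that partly overlap. A single test passes by chance about 1 time in 20, and these tests were not independent.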

How the results depend on the processing

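Of 121 alternatives that kept all replicates, 101 moved a value by less than the SD between replicates or a count by no more than 1.5 times, as did 86 of those that left out a replicate. Of these values 5 had another sign. The difference in coverage of gained bins between trained and untrained mice in mH2A1 at 6 h was -0.446 percentage points, 0.0432 with a bin counted as covered at 20% and 0.0117 for bins with no untrained overlap. The median after training in shH2afy mice was -0.01, 0.0084 without untrained replicate 2 and 0.0040 without trained replicate 3, and that of depletion with shH2afy2 was -0.04 and 0.0061 without shScr replicate 3. With 1 bin per run, 176 bins gained mH2A2 at 30 min and 134 gained mH2A1 at 1 h, since fewer bins entered. The difference in GC content was 2.20 percentage points against all bins and -2.38 against bins covered in at least 1 list. After training DESeq2 called 27 genes near gained bins in intact mice (2.00 against 3.04% of all genes) and 27 in shScr mice (1.83 against 1.32%). It called 5 in shH2afy mice after training (0.323 against 0.296%) and 7 in depletion with shH2afy2 (0.536 against 0.782%). Within 50 kb edgeR called 2 genes in intact mice (0.0588 against 0.0959% of all genes). Their median was -0.0187 for overlapping genes, -0.00474 within 50 kb and -0.00478 with the replicate block. For depletion with shH2afy the count was 179 for overlapping genes (20.2% of those tested), 602 within 50 kb (16.6%) and 125 around start sites (21.2%), each against 11.7% of all genes. It was 453 with no filter (12.9 against 7.60%) and 181 with the replicate block (12.6 against 7.08%), and the median was 0.12 within 50 kb and 0.18 around start sites. With shH2afy2 and no filter it was 52 genes (1.56 against 0.923% of all genes) and a median of -0.18. The causes were not tested. With the replicate block no gene was called in intact mice, against 15 without it, Egr2 and Fos included. Among the counts near gained bins, only that of depletion with shH2afy changed by over 1.5 times with the block (181 against 293). In shH2afy mice after training the correlations of deviations were -0.12, 0.41 and 0.30, so that samples of replicates 2 and 3 also deviated together. The fit with the block called 0 genes near gained bins there, as without it. In intact mice and in the depletion comparisons the correlations were between -0.29 and -0.06. Scaling by relative log expression, partly added after the data were seen, gave medians from -0.04 to 0.22.

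Leaving out 1 replicate gave 18343 to 65176 gained bins, 389 to 1027 gained in mH2A2 at 30 min, 401 to 1143 in mH2A1 at 1 h, 0 to 6 at 6 h and 55 to 118 in mH2A2 at 1 h. It gave 0 to 45 called genes and medians of -0.0204 to -0.00576 in intact mice, and 152 to 338 called genes and medians of 0.19 to 0.30 in depletion with shH2afy. Domain lists hold presence and absence, so that a change of signal inside a domain or under the caller's threshold was not measured, and the presence of a domain in 3 against 2 mice at 30 min cannot pass an exact test at 0.05. The counts in the domains were not tested.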
